A study of Mus musculus with 6 samples.

Results

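The 253 annotated piRNA cluster regions described here were the features of the class piRNA_cluster that averaged 1 RPM or more over 4 crosslinked eCLIP libraries of mouse Gtsf1. RPM scales the reads of each library to a common total. The class held 2188 clusters with any read, so 1935 lay under that minimum, and the files held 1753368 features of all classes, of which 39872 met the same minimum and were tested. Gtsf1, also called Asterix, carried a TEV-Strep tag at its C-terminus. It was expressed by transient transfection of P19 cells, a mouse embryonal carcinoma line, from the pEF vector, in which EF-1alpha is the promoter. Cells were harvested 48 hours after transfection, per the labels. Ultraviolet light joins RNA covalently to the proteins it touches. The crosslinked libraries, called UV libraries here, were from cells irradiated at 254 nm and comprised 2 inputs (lysate kept before capture) and 2 pull-downs (RNA recovered with the tagged protein on Strep beads). Non-irradiated cells gave 1 input and 1 pull-down (the no-UV libraries), which show what RNA came down without crosslinking. The same tagged protein was expressed in all 6 libraries, so every comparison is between pull-down and input of transfected cells. The labels do not say that replicates came from separate cultures, and p-values then measure the spread between these libraries, which may be technical. In bulk lysates, fewer cells with an RNA and less of it per cell cannot be told apart.

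piRNA clusters are the genomic regions from which long precursor RNAs are transcribed and cut into piRNAs, the small RNAs that guide PIWI proteins to transposon transcripts in the germ line. Gtsf1 is a small zinc-finger partner of PIWI proteins that is required for transposon silencing in the mouse male germ line. The cluster catalogue marks places on the genome. A read counted to a cluster may therefore come from a precursor or from any other transcript of the same region, such as the mRNA or small nuclear RNA gene for which some clusters are named. The files give each cluster a name made of a chromosome band or of a host gene and no coordinates, so no cluster sequence is shown.

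Libraries held 13168593 to 18418166 reads, so that 1 read equals 0.0543 to 0.0759 RPM. The chi-square per degree of freedom between replicates, over the tested features, was 5.94 (inputs) and 6.89 (pull-downs), above the value of 1 that counting error alone gives. Of 10 markers fixed for undifferentiated embryonal carcinoma cells, 8 had at least 1 RPM in each input, with a summed level of 134 to 210 RPM, and Nanog and Zfp42 were the exceptions. Of 10 genes of piRNA-making germ cells, 3 (Dmrt1, Zbtb16 and Mybl1) reached 1 RPM in each input, the summed level was 12.8 to 25.3 RPM, and Dazl was at 0 in all 3 inputs.

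The 253 clusters together were lower in the pull-downs than in the inputs. Their summed level was 7247 and 4801 RPM in the UV inputs and 5180 RPM in the no-UV input. It was 1712 and 1803 RPM in the UV pull-downs and 1339 RPM in the no-UV pull-down. All 3 pull-downs lay below all 3 inputs, and the inputs differed among themselves more than the pull-downs did. The means were 1758 ± 64.4 RPM in the UV pull-downs and 6024 ± 1730 RPM in the UV inputs (SD, n = 2 each), which gives 0.292 as the ratio with UV, beside 0.258 without. As a share of the library, the clusters took 0.725% (95% Wilson interval 0.721 to 0.729%) and 0.480% (0.477 to 0.483%) of the UV inputs, and 0.171% (0.169 to 0.173%) and 0.180% (0.178 to 0.182%) of the UV pull-downs. These intervals cover counting error only, since PCR copies are not independent molecules. The 253 clusters held 93.5% to 96.0% of all cluster reads in the inputs and 83.6% to 89.2% in the pull-downs.

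**Figure D1:**
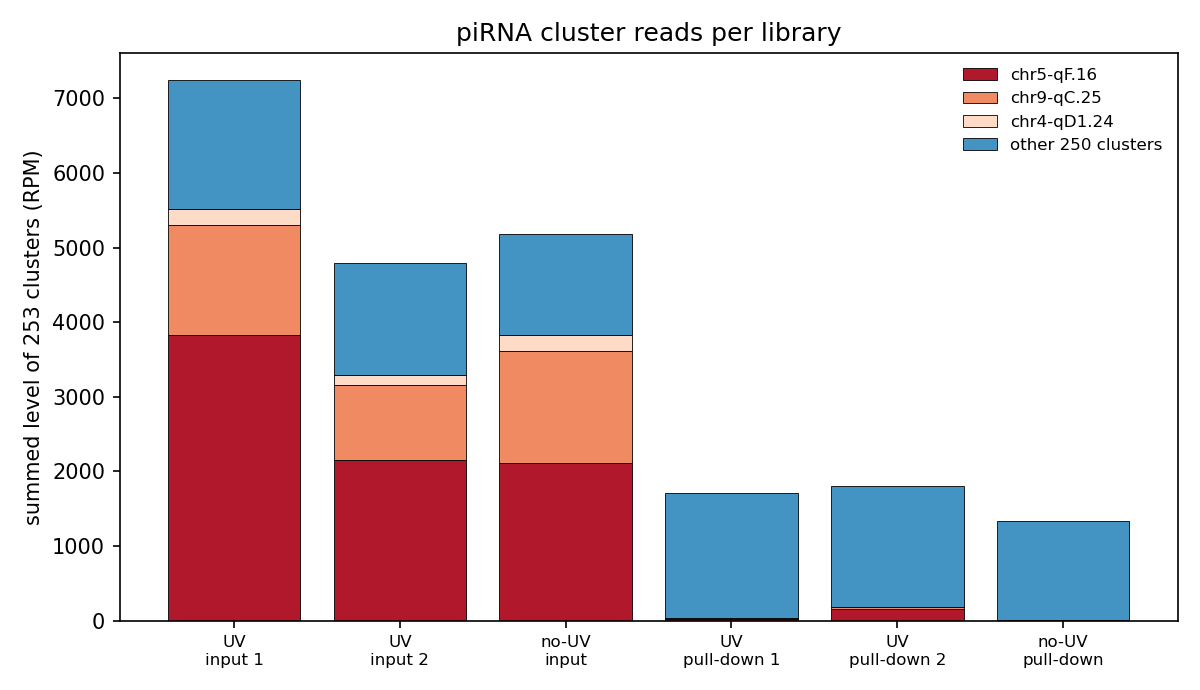
Summed level of the 253 piRNA clusters (RPM, linear axis from 0) in each of the 6 libraries, with the clusters chr5-qF.16, chr9-qC.25 and chr4-qD1.24 and the other 250 clusters stacked. The 3 named clusters fill 68.5% to 76.1% of the input bars and 0.970% to 10.0% of the pull-down bars, while the remainder is of like height in inputs and pull-downs.

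The fall of the class total rested on a few clusters. The most abundant one, chr5-qF.16, held 52.9% and 44.8% of the reads of the 253 clusters in the UV inputs and 40.9% in the no-UV input. Its share was 1.41% and 8.59% in the UV pull-downs (95% Wilson intervals 1.28 to 1.56% and 8.27 to 8.93%, for counting error only), and 0.607% in the no-UV pull-down. With chr9-qC.25, the next in rank, the pair held 65.7% to 73.2% of the reads in the 3 inputs and 0.908% to 9.74% in the 3 pull-downs. Leaving out chr5-qF.16 moved the class ratio from 0.292 to 0.550, and leaving out both moved it to 0.921 (0.845 without crosslinking). Without chr5-qF.16, chr9-qC.25 and chr4-qD1.24, which were picked after their values were seen, the other 250 clusters had 1649 ± 37.5 RPM in the UV pull-downs and 1623 ± 158 RPM in the UV inputs (SD, n = 2 each), a ratio of 1.02, and a ratio of 0.985 without crosslinking. That difference was smaller than the spread between the inputs. With clusters left out by rank of level instead, the ratio with UV was 0.874 without the top 3 and 0.873 without the top 5.

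Reads were spread over more clusters in the pull-downs. A share of 50% of the reads of the 253 clusters lay in 1 and 2 clusters in the UV inputs and in 2 in the no-UV input. The same share took 9 and 10 clusters in the UV pull-downs and 7 in the no-UV pull-down. To reach 90%, 25, 41 and 15 clusters were needed in UV inputs 1 and 2 and the no-UV input. In UV pull-downs 1 and 2 and the no-UV pull-down, 123, 116 and 76 were needed. The leading cluster was chr5-qF.16 in every input. In the pull-downs it was chr19-qA.8 in UV pull-down 1 (12.2% of the reads), chr5-qF.16 in UV pull-down 2 and chr12-qE.1 in the no-UV pull-down (11.5%).

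**Figure D2:**
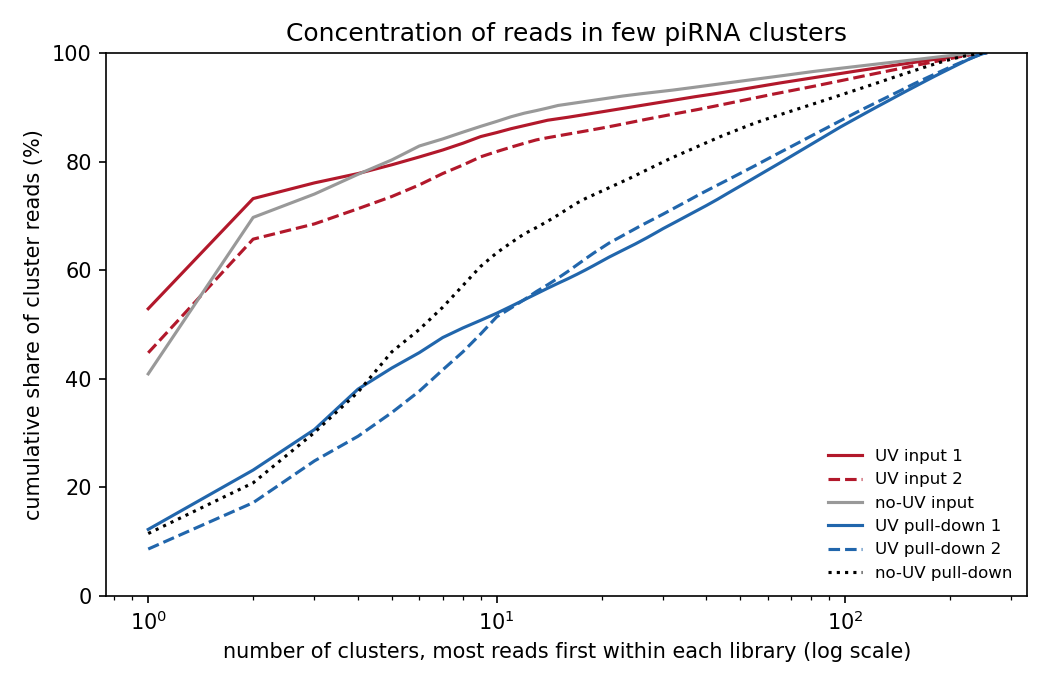
Cumulative share of the reads of the 253 clusters (%) against the number of clusters, ordered by reads within each library (log axis), with 1 line per library. The 3 input lines start above 40% at the first cluster, and the 3 pull-down lines start at 12.2% or below.

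Cluster by cluster, most changes were small. edgeR called 17 of the 253 clusters higher and 17 lower in the UV pull-downs (Benjamini-Hochberg adjusted p under 0.05), which is 6.72% in each direction, beside 6.41% higher and 3.47% lower (9.88% in either direction) among all 39872 tested features. The other 219 were not called. The median log2 ratio of the clusters was -0.27 (quartiles -0.52 and 0.12) and that of all tested features was -0.21 (quartiles -0.40 and 0.00029). Both pull-downs lay below both inputs for 127 clusters (50.2%, beside 57.7% of all tested features) and above them for 29 (11.5%, beside 10.8%), and the groups overlapped for 97. The split between directions depended on the scaling. Under TMM factors 19 clusters were called higher (7.51%, beside 6.93% of all features in that fit) and 11 lower (4.35%, beside 1.59%). Under DESeq2 there were 22 higher (8.70%, beside 6.32%) and 8 lower (3.16%, beside 0.599%). With unannotated reads in the library size there were 18 higher (7.11%, beside 6.42%) and 29 lower (11.5%, beside 5.55%). Under these scalings the median over all tested features was -0.0043, -0.0015 and -0.30. Without UV input 2, 26 clusters were called lower (10.3%, beside 5.44%). With no minimum level, 942601 features were tested and edgeR called 0 of them, so every call named here was lost, while at an unadjusted p under 0.05 137 clusters were higher (6.52%, beside 2.92% of all features in that fit) and 108 lower (5.14%, beside 1.52%).

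Passing the minimum could depend on the side where a cluster was high. Of the 253 clusters, 213 reached a mean of 1 RPM in inputs and in pull-downs, and 6 of these were called higher (2.82%, beside 2.47% of all tested features split in the same way) and 12 lower (5.63%, beside 2.95%). A further 25 reached it only in the inputs, with 5 called lower (20%, beside 9.02%), and 15 only in the pull-downs, with 11 called higher (73.3%, beside 73.9%). The split itself selects for these directions. At the edge of the rule, chr17-qA3.3.25, AC173344.1.1 and Pigq.1 were just inside, with means of 1.03, 1.02 and 1.00 RPM over the UV libraries. The clusters Srpk1.1, chr13-qC1.36 and Mea1.1 were just outside, with 0.999, 0.987 and 0.987 RPM.

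The 3 clusters named above were many times lower in every pull-down. The level of chr5-qF.16 was 3832 and 2149 RPM in the UV inputs, 2117 RPM in the no-UV input, 24.2 and 155.0 RPM in the UV pull-downs and 8.13 RPM in the no-UV pull-down. Crosslinked pull-down 2 held 6.40 times the level of pull-down 1, and both lay far under the lowest input. The edgeR log2 ratio was -4.96 (SE 0.91, adjusted p = 0.0201), and it was -4.16 without UV pull-down 1 and -6.87 without UV pull-down 2. Cluster chr9-qC.25 had 1471 and 1005 RPM in the UV inputs, 1493 RPM in the no-UV input, 9.29 and 20.6 RPM in the UV pull-downs and 4.02 RPM in the no-UV pull-down. The edgeR log2 ratio, the lowest of the 253, was -6.27 (SE 0.49, adjusted p = 0.000557), and -6.97 without UV pull-down 2. Cluster chr4-qD1.24 had 210 and 135 RPM in the UV inputs, 223 RPM in the no-UV input, 3.56 and 5.57 RPM in the UV pull-downs and 0.835 RPM in the no-UV pull-down (edgeR log2 ratio -5.15, SE 0.36, adjusted p = 0.000409). For each of these clusters the no-UV pull-down was the lowest of the 6 libraries, with log2(RPM + 1) ratios of -7.86, -8.22 and -6.93 over its input, from 1 library each. All 3 clusters hold fractional counts, a sign of reads split between features.

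As a description added after the values were seen, the 50 tested features of other classes with the nearest profile (the deviations of log2(RPM + 0.5) from their mean over the 6 libraries) were counted by class. For chr5-qF.16 they included 30 snoRNA features, guides of rRNA modification, and 7 snRNA features, RNAs of the splicing machinery. These classes make up 0.916% and 0.406% of the tested features outside the clusters. For chr9-qC.25 and for chr4-qD1.24 they included 26 snoRNA and 7 snRNA features, and the nearest 50 of these 2 clusters were the same 50 features. The likeness was loose: the 50th feature lay at a root mean square distance of 2.209, 2.32 and 1.76 on the log2 scale from chr5-qF.16, chr9-qC.25 and chr4-qD1.24, against 0.38 for chr8-qE1.64 and 0.67 for chr13-qA2.4. By level rather than profile, the nearest feature of another class to chr5-qF.16 was the snRNA Gm25313, at most 1.61 apart on the log2 scale in any library, followed by the U5 snRNA gene Rnu5g at 1.74. The nearest to chr9-qC.25 was the snoRNA Snora64 at 2.28, and the nearest to chr4-qD1.24 was the antisense RNA B930036N10Rik at 1.28. None of these is a close match, and whether they overlap the clusters on the genome was not tested.

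A pair of clusters of the band chr8-qE1 and a pair on chromosome 3 were also lower in the pull-downs. Cluster chr8-qE1.64 had 92.6 and 75.2 RPM in the UV inputs and 15.7 and 22.4 RPM in the UV pull-downs (edgeR log2 ratio -2.04, SE 0.24, adjusted p = 0.00315), with 133 RPM in the no-UV input and 53.5 RPM in the no-UV pull-down. Cluster chr8-qE1.65 had 89.1 and 72.8 RPM against 14.1 and 19.02 RPM (edgeR log2 ratio -2.19), with 137 and 54.6 RPM in the no-UV input and pull-down. The counts of these 2 clusters differed by at most 15.2% in any library. Whether they share reads was not tested. On chromosome 3, Gm25890.1 had 18.9 and 12.8 RPM in the UV inputs, 24.5 RPM in the no-UV input, 6.36 and 4.77 RPM in the UV pull-downs and 7.40 RPM in the no-UV pull-down (edgeR log2 ratio -1.42, SE 0.24, adjusted p = 0.0158). Its host Gm25890 is an snRNA gene in RefSeq, at chromosome 3, 96486555 to 96486719 of GRCm38. The counts of chr3-qF2.1.11 differed from those of Gm25890.1 by at most 4.61%, and its edgeR log2 ratio was -1.39. Of the 50 nearest profiles, 32 were rRNA features both for chr8-qE1.64 and for Gm25890.1, and the sets had 32 features in common. The rRNA class makes up 0.661% of the features compared.

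The other clusters called lower were chr15-qE1.21 and several of a few RPM. Cluster chr15-qE1.21 had 52.1 and 19.3 RPM in the UV inputs, 5.52 and 4.99 RPM in the UV pull-downs, and only 2.47 and 1.22 RPM in the no-UV input and pull-down. It was thus highest in the UV inputs (edgeR log2 ratio -2.66, SE 0.46, adjusted p = 0.0165), and the ratio was -1.80 without UV input 1. The pair chr12-qC1.29 and chr12-qC1.30 had edgeR log2 ratios of -1.77 and -1.65, from inputs of 2.35 to 3.69 RPM, and both calls were lost without UV pull-down 2, under TMM factors and DESeq2, and with rRNA left out of the library size (adjusted p = 0.0504 and 0.0523). For chr10-qC1.16 the log2 ratio was -1.65, from 1.89 and 1.30 RPM in the inputs to 0.496 and 0.442 RPM in the pull-downs, and this call too was lost without pull-down 2. The rest, Gm49338.1, chr19-qC3.30, chr2-qH4.20, AC183097.2.1, Larp1.1 and Snx27.1, had edgeR log2 ratios between -1.38 and -0.74. In the no-UV libraries 16 of the 17 clusters called lower were lower in the pull-down too, beside 84.3% of all tested features. AC183097.2.1 was the exception. By at least 1 on the log2(RPM + 1) scale, 9 of the 17 were lower, beside 6.05% of all tested features.

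**Figure D3:**
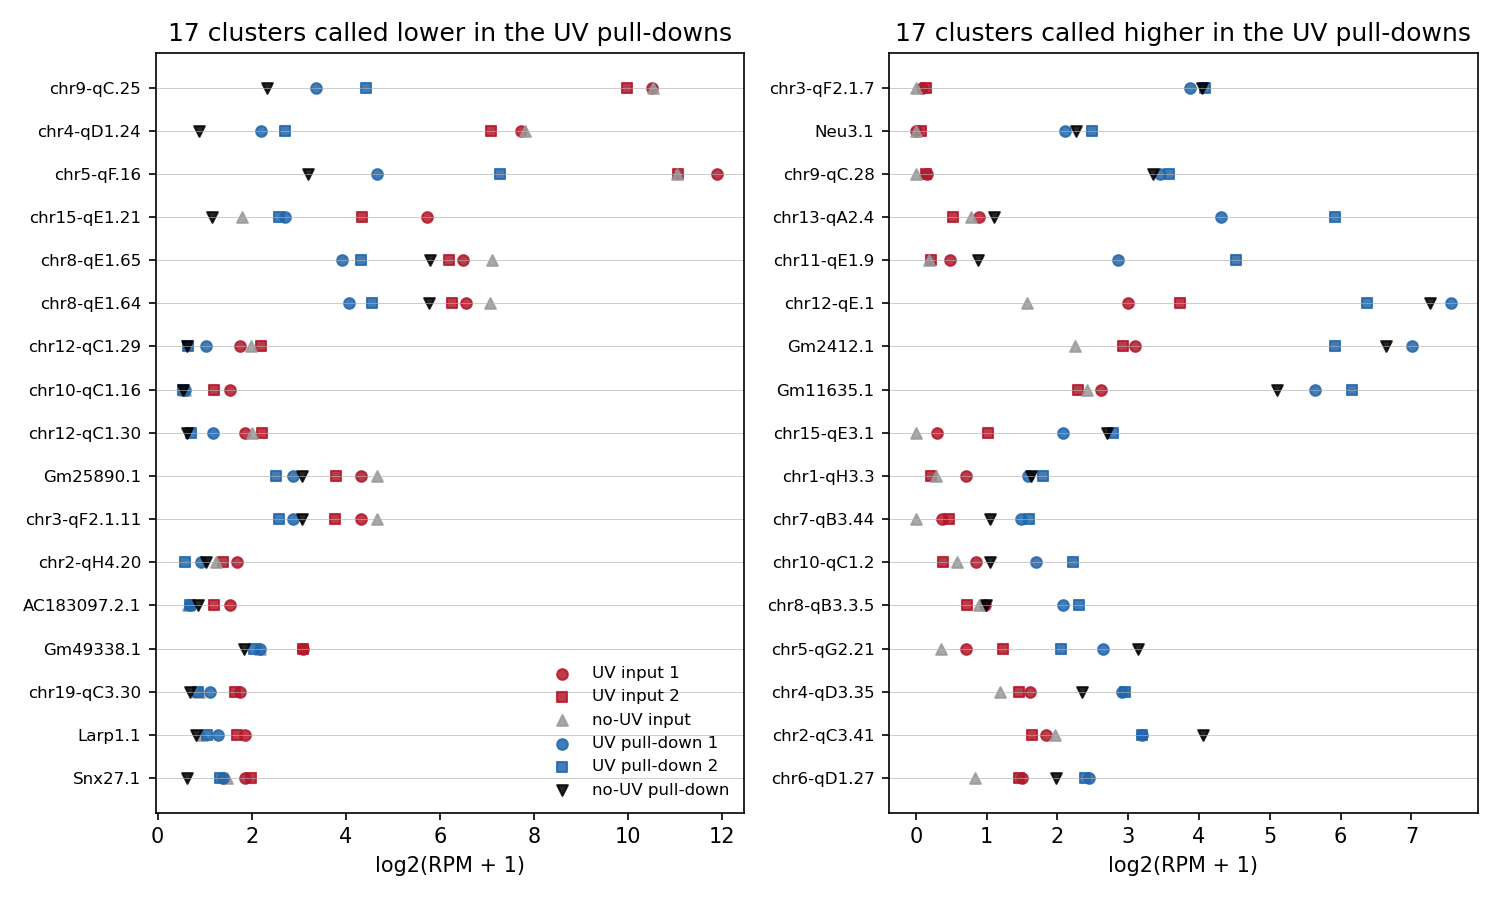
Level of each called cluster, as log2(RPM + 1), in the 6 libraries, with 1 marker per library and clusters ordered by the size of the edgeR ratio. In the left panel (17 called lower) the red UV inputs lie right of the blue UV pull-downs in every row, and in the right panel (17 called higher) they lie left of them.

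Among the 17 clusters called higher, some had high levels in every pull-down, with or without crosslinking. Cluster chr12-qE.1 had 6.99 and 12.3 RPM in the UV inputs, 1.98 RPM in the no-UV input, 187 and 81.8 RPM in the UV pull-downs and 153 RPM in the no-UV pull-down (edgeR log2 ratio 3.88, SE 0.49, adjusted p = 0.00394). The no-UV pull-down lay between the UV ones. Gm2412.1, named for a pseudogene at chromosome 12, 54729667 to 54737889 of GRCm38, had 7.51 and 6.61 RPM in the UV inputs, 3.76 RPM in the no-UV input, 127 and 59.8 RPM in the UV pull-downs and 99.3 RPM in the no-UV pull-down (edgeR log2 ratio 3.81, SE 0.39, adjusted p = 0.00158). Both clusters were about as high in the pull-down without crosslinking as with it. Without UV pull-down 1 their ratios were 3.18 and 3.19. Gm11635.1 had 5.15 and 3.91 RPM in the UV inputs, 4.35 RPM in the no-UV input, 48.7 and 70.6 RPM in the UV pull-downs and 33.2 RPM in the no-UV pull-down (edgeR log2 ratio 3.81, SE 0.28, adjusted p = 0.000457).

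Other clusters were nearly absent from the inputs and had like levels in all 3 pull-downs. Cluster chr3-qF2.1.7, with the highest edgeR log2 ratio of the 253 (7.43, SE 0.31, adjusted p = 0.000355), had 0.0654 and 0.109 RPM in the UV inputs and 0 in the no-UV input. In the pull-downs it had 13.6 and 15.9 RPM with crosslinking and 15.4 RPM without. It had 3 reads in the 2 UV inputs and 472 in the 2 pull-downs, a depth-scaled ratio of 177 with an exact 95% counting interval of 60.1 to 860. Cluster chr9-qC.28 had 9.87 and 10.9 RPM in the UV pull-downs and 9.19 RPM in the no-UV pull-down, against 0.115 and 0.109 RPM in the UV inputs and 0 in the no-UV input (ratio 93.2, interval 36.1 to 344). Neu3.1, named for a sialidase gene at chromosome 7, 99811434 to 99828457 of GRCm38, had 3.29 and 4.61 RPM in the UV pull-downs, 3.80 RPM in the no-UV pull-down and 1 read in all 3 inputs together (ratio 142, interval 24.9 to 5634). Of the 50 nearest profiles, 21 were LINE elements for each of these 3 clusters and 20 for Gm11635.1, beside 1.04% of the features compared. LINE elements are autonomous retrotransposons. Other transposon classes were above their shares too. For chr3-qF2.1.7, Neu3.1, chr9-qC.28 and Gm11635.1 in turn, LTR elements numbered 10, 11, 10 and 11 (beside 2.01%). SINE elements numbered 4, 7, 6 and 2 (beside 0.490%), and DNA transposons 4, 2, 2 and 1 (beside 0.116%). The sets of chr3-qF2.1.7 and chr9-qC.28 shared 17 features, and that of Neu3.1 shared 0 with either. Fitted log2 ratios of clusters with so few input reads depend on the prior count used in the fit, and that of Neu3.1 was 6.07 without UV input 1 and 9.06 without UV input 2.

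In some clusters, UV pull-down 2 held the highest level and the no-UV pull-down the lowest of the 3 pull-downs. Among the clusters called higher that are described above, Gm11635.1 and chr9-qC.28 had this order too. This order was common, with 81 of the 253 clusters (32.0%, beside 30.1% of all tested features) and 8 of the 17 called higher. The 4 given here were picked from them after their nearest profiles were seen. Cluster chr13-qA2.4 had 0.859 and 0.434 RPM in the UV inputs, 0.707 RPM in the no-UV input, 18.9 and 59.7 RPM in the UV pull-downs and 1.14 RPM in the no-UV pull-down. Its edgeR log2 ratio was 6.02 (SE 0.71, adjusted p = 0.00306), with 6.63 without UV pull-down 1 and 4.94 without UV pull-down 2. Cluster chr11-qE1.9 had 0.401 and 0.163 RPM in the UV inputs, 0.141 RPM in the no-UV input, 6.27 and 22.0 RPM in the UV pull-downs and 0.835 RPM in the no-UV pull-down (edgeR log2 ratio 5.72, SE 0.85, adjusted p = 0.00847). In both, pull-down 2 held over 3 times the level of pull-down 1, by 3.16 and 3.51 times. The ratio of chr11-qE1.9 was 4.53 without pull-down 2, 6.37 without pull-down 1 and 6.45 without input 1. Cluster chr10-qC1.2 had 0.802 and 0.299 RPM in the UV inputs, 2.23 and 3.67 RPM in the UV pull-downs, and 0.495 and 1.06 RPM in the no-UV input and pull-down (edgeR log2 ratio 2.47, SE 0.42, adjusted p = 0.0145). Cluster chr5-qG1.1.1 had 10.8 and 6.99 RPM in the UV inputs, 5.45 RPM in the no-UV input, 20.5 and 78.7 RPM in the UV pull-downs and 15.5 RPM in the no-UV pull-down. Its edgeR log2 ratio of 2.58 (SE 0.62) was not called (adjusted p = 0.0537). It was called under DESeq2, with unannotated reads in the library size, with the minimum set on the pull-downs and with identical features counted once. It was not called under the other alternatives that keep all UV libraries. With a pull-down left out, that group holds 1 library, so only the ratio is given. It was 1.29 without UV pull-down 2 and 3.26 without UV pull-down 1.

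The tRNA class as a whole shared the difference between the pull-down replicates. Its level was 3375 RPM in UV pull-down 1 and 9033 RPM in pull-down 2, a factor of 2.68, against 1047 and 1050 RPM in the UV inputs, 1135 RPM in the no-UV input and 915 RPM in the no-UV pull-down. Among the 50 features of other classes with the nearest profile, tRNA features numbered 31 for chr13-qA2.4, 28 for chr5-qG1.1.1, 24 for chr11-qE1.9 and 23 for chr10-qC1.2, beside 0.656% of the features compared. These clusters were picked with such counts known, so the comparison with that share is no test. Some other clusters with the same pull-down order had fewer: 13 for chr13-qA3.1.5, 11 for chr8-qB3.3.5 and 8 for Gm11635.1. For chr9-qC.28, which also had that order, tRNA was not among the classes found. The sets of chr13-qA2.4 and chr11-qE1.9 shared 25 features, and those of chr13-qA2.4 and chr5-qG1.1.1 shared 0. tRNAs are transcribed by RNA polymerase III, outside the polymerase II transcription that gives piRNA precursors. Whether tRNA genes lie in these clusters was not tested, since the files give no cluster coordinates.

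**Figure D4:**
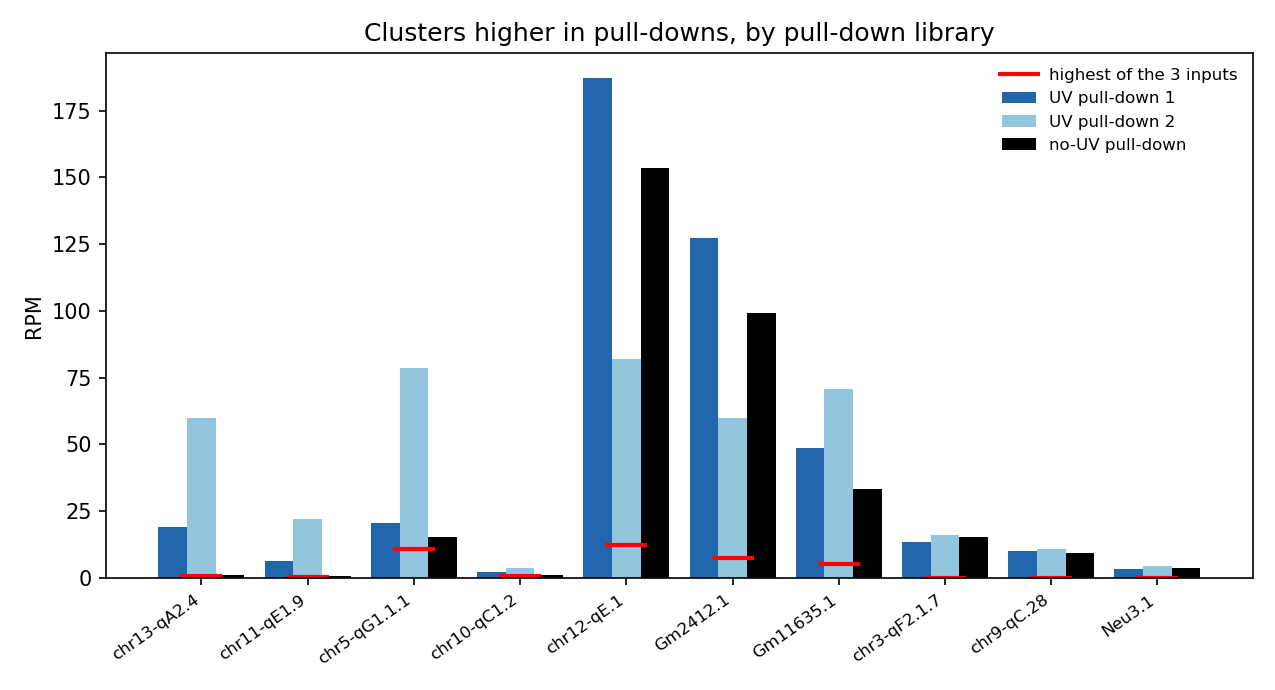
Level (RPM, linear axis from 0) of 10 clusters in the 3 pull-down libraries, with a red line at the highest of the 3 inputs. In the first 4 clusters UV pull-down 2 is highest and the no-UV bar is lowest, an order that Gm11635.1 and chr9-qC.28 have too. In the other 6 the no-UV bar lies far above the input line.

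The remaining clusters called higher included chr15-qE3.1 and chr1-qH3.3. Cluster chr15-qE3.1 had 0.229 and 1.03 RPM in the UV inputs, 3.23 and 5.88 RPM in the UV pull-downs and 5.47 RPM in the no-UV pull-down (edgeR log2 ratio 2.90, SE 0.53, adjusted p = 0.0206). Cluster chr1-qH3.3 had 0.630 and 0.163 RPM against 1.99 and 2.46 RPM (edgeR log2 ratio 2.58, SE 0.41, adjusted p = 0.0111), with 2.09 RPM in the no-UV pull-down. The ratio of chr15-qE3.1 was 2.2097 without UV input 1 and 4.37 without UV input 2, and that of chr1-qH3.3 was 3.78 and 1.91. The clusters chr7-qB3.44, chr8-qB3.3.5, chr5-qG2.21, chr4-qD3.35, chr2-qC3.41 and chr6-qD1.27 had edgeR log2 ratios between 1.37 and 2.58. Of these, chr2-qC3.41 was higher in the no-UV pull-down (15.6 RPM) than in either UV one (8.19 and 8.15 RPM), and chr5-qG2.21 too (7.82 RPM against 5.27 and 3.16 RPM). Cluster chr8-qB3.3.5 had 3.23 and 3.92 RPM in the UV pull-downs, and its no-UV pull-down, at 0.987 RPM, was near the no-UV input at 0.848 RPM.

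The ratios with and without crosslinking were set side by side for all 253 clusters. All 17 clusters called higher were also higher in the no-UV pull-down than in its input, and 13 of them by at least 1 on the log2(RPM + 1) scale, as were 5.26% of all tested features. Over the 253 clusters the median no-UV log2(RPM + 1) ratio was -0.32, beside -0.41 for all tested features, and 188 clusters (74.3%, beside 84.3%) were lower in the no-UV pull-down. The difference between the UV and the no-UV ratio was tested as an interaction in an edgeR fit of all 6 libraries, in which the single no-UV libraries were assumed to vary like the UV ones. It was called for 0 of 253 clusters, beside 0% of all tested features, with a lowest adjusted p of 0.335. At an unadjusted p under 0.05 there were 33 clusters (13.0%, beside 13.6% of all tested features). A difference between the sets above by crosslinking is therefore given as values and not as a tested result.

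**Figure D5:**
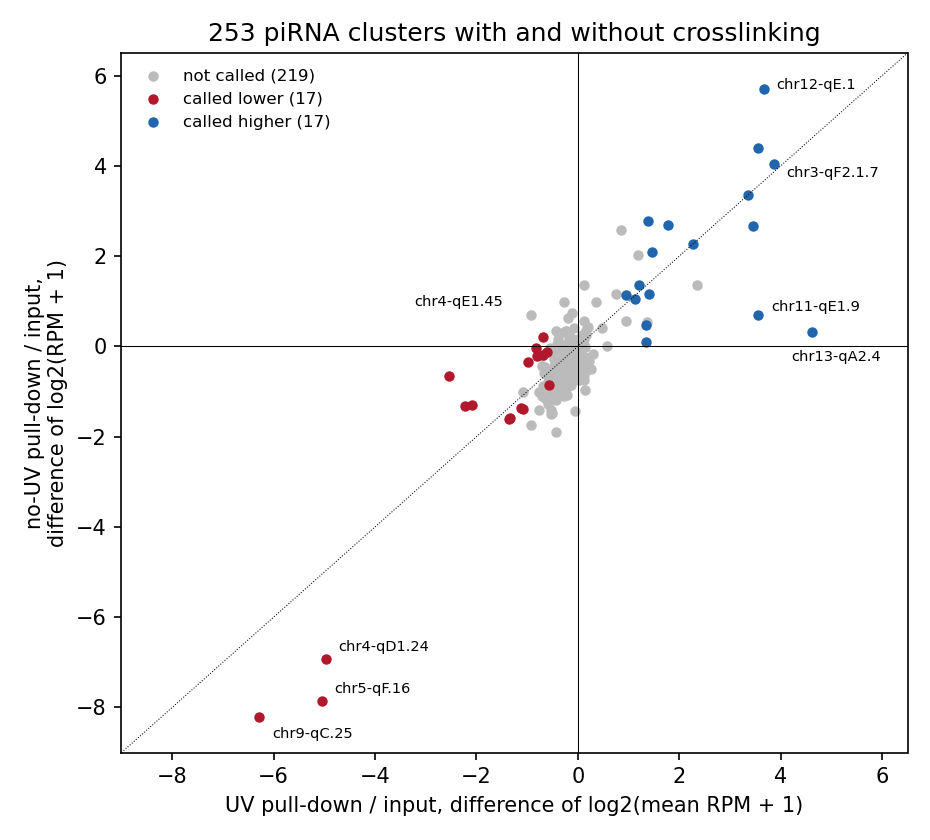
Pull-down over input ratio of each of the 253 clusters with crosslinking (horizontal axis) and without (vertical axis), both as differences on the log2(RPM + 1) scale, coloured by the edgeR call, with the dotted line at equal ratios. The clusters chr5-qF.16, chr9-qC.25 and chr4-qD1.24 stand apart at the lower left. At the right lie chr13-qA2.4 and chr11-qE1.9, with no-UV ratios of 0.33 and 0.69. Both had at most 1.14 RPM in the no-UV libraries, where this scale understates changes.

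Several abundant clusters did not pass the test. Cluster chr19-qA.8 had 104.7 and 100.3 RPM in the UV inputs, 209 and 139 RPM in the UV pull-downs, and 55.3 and 124 RPM in the no-UV input and pull-down. Both pull-downs lay above both inputs, and the edgeR log2 ratio of 0.85 (SE 0.24) had an adjusted p of 0.0832. It was called under TMM factors (adjusted p = 0.0386) and under DESeq2 (0.0309). The ratio was 1.11 without UV pull-down 2 and 0.54 without UV pull-down 1, each from 1 pull-down library. Cluster chr6-qA1.79 had 124 and 134 RPM in the inputs and 128 and 154 RPM in the pull-downs, which overlapped (edgeR log2 ratio 0.22, adjusted p = 0.563). Its nearest feature by level was the snoRNA Snord12, at most 0.57 apart on the log2 scale, and that of chr19-qA.8 was an rRNA feature at 0.54. Cluster chr4-qE1.45 had 90.5 and 107.8 RPM in the UV inputs and 47.5 and 56.6 RPM in the UV pull-downs (edgeR log2 ratio -0.84, adjusted p = 0.0532), and went the other way without crosslinking, from 33.7 RPM in the input to 55.4 RPM in the pull-down. With UV it was called lower with unannotated reads in the library size (adjusted p = 0.0307), with the minimum set on the pull-downs (0.0471) and with limma on log2(RPM + 1) (0.0314) and log2(RPM + 0.5) (0.0270).

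Snhg1.1, Gm43041.1 and chr9-qE3.1.2 were lower in the pull-downs without passing the test. Snhg1.1 had 117 and 103 RPM in the UV inputs, 66.6 and 71.4 RPM in the UV pull-downs, and 188 and 125 RPM in the no-UV input and pull-down (edgeR log2 ratio -0.58, adjusted p = 0.111). It is named for Snhg1, a long non-coding RNA whose introns carry snoRNAs, at chromosome 19, 8723487 to 8726326 of GRCm38. Gm43041.1 had 53.2 and 46.3 RPM against 30.3 and 29.7 RPM (edgeR log2 ratio -0.64, adjusted p = 0.0713), and lay within 0.18 on the log2 scale of the pre-mRNA feature of Npm1, a nucleolar protein, in every library. Cluster chr9-qE3.1.2 had 40.4 and 39.2 RPM against 22.1 and 26.9 RPM (edgeR log2 ratio -0.61, adjusted p = 0.100), and lay within 0.30 of an exon of the translation factor Eif4a1. With limma on log2(RPM + 0.5), Gm43041.1 (adjusted p = 0.0402) and chr9-qE3.1.2 (0.0495) were called lower, and Gm43041.1 also with limma on log2(RPM + 1) (0.0461) and with unannotated reads in the library size (0.0475).

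Clusters named for genes and clusters named for bands had like medians. Of all tested features, 6.41% were called higher and 3.47% lower. Of 157 clusters named for a chromosome band, 14 were called higher and 12 lower, with a median edgeR log2 ratio of -0.27. Of 96 named for a gene, 3 were called higher and 5 lower, with a median of -0.28. RefSeq held 79 of these host names, among them 58 protein-coding genes (1 cluster called higher and 2 lower) and 17 long non-coding RNA genes (0 called). The 9 clusters named for ribosomal protein genes had edgeR log2 ratios between -0.71 and 0.43, and 0 were called. Of 30 clusters whose host also had a tested pre-mRNA feature, 21 had a higher ratio than that feature, with median edgeR log2 ratios of -0.28 for the clusters and -0.63 for the hosts. Against summed host exons or introns, on the log2 ratio of mean RPM, the counts went the other way. The cluster was higher than the host's exons in 24 of 55 (medians -0.37 and -0.32) and higher than the host's introns in 19 of 48 (medians -0.39 and -0.25). Lin28a.1, named for the pluripotency-associated RNA-binding protein Lin28a and picked after its values were seen, had 1.72 and 1.52 RPM in the UV inputs and 1.55 and 1.201 RPM in the UV pull-downs, which overlapped.

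The 236 clusters that could be placed by their band or their RefSeq host came from 19 chromosomes, with the most, 30, on chromosome 11, and the other 17, named for genes without a RefSeq match, were not placed. The band with the most clusters was chr2-qH4. Of its 11 clusters, 0 were called higher and 1 lower (chr2-qH4.20), beside 6.41% and 3.47% of all tested features. All 11 had negative edgeR log2 ratios, from -1.38 to -0.15, with a median of -0.37. The 6 clusters of chr3-qF2.1 held both chr3-qF2.1.7, the highest ratio of all, and chr3-qF2.1.11, called lower. Clusters of chr3-qF2.1 therefore did not have a shared direction. Fractional counts, a sign of reads split between features, were present in 68 of the 253 clusters. Besides the pairs named above, chr11-qB3.6 with Pisd-ps1.1 and chr4-qA5.42 with chr4-qA5.46 had counts within 20% of each other in every library with at least 10 reads.

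Genes of the piRNA pathway were examined in the same libraries. Of 32 listed genes, 4 had a tested pre-mRNA feature, and 1 was called higher and 0 lower on that feature. That gene was Gtsf1 itself, the transfected gene, with 46.9 and 46.3 RPM in the UV inputs, 102.0 and 210.3 RPM in the UV pull-downs, and 49.2 and 40.6 RPM in the no-UV input and pull-down (edgeR log2 ratio 1.84, SE 0.36, adjusted p = 0.0249). The others were Hsp90aa1, Hsp90ab1 and Fkbp4, chaperones that many proteins use. Counting features of every kind, 6 of the genes had a tested feature. Of these, 27 of 44 Gtsf1 features were called higher and 3 of 30 Hsp90ab1 features, all exons, were called lower (beside 6.41% higher and 3.47% lower of all tested features). Many features of a gene carry identical fitted values: the 44 Gtsf1 features hold 7 distinct fits, 4 of them called higher, and the 30 of Hsp90ab1 hold 21, 3 of them called lower. Of the features of Fkbp4, Hsp90aa1, Tdrd3 and Tdrkh, 0 were called. Of the listed genes, Tdrd3, Tdrd7 and Tdrkh, members of the Tudor domain family, had 19.3 to 35.3, 5.73 to 11.9 and 6.48 to 12.1 RPM in the inputs, and Tex15, a germ cell gene, had 2.73 to 4.67 RPM, all summed over their features. Summed in the same way, Piwil1, Piwil2 and Piwil4, the PIWI proteins that carry piRNAs, had at most 0.724 RPM in any input and at most 0.680 RPM in any pull-down. Mybl1, the transcription factor of pachytene piRNA precursors, had 1.21 to 2.13 RPM in the inputs and 0.430 to 2.24 RPM in the pull-downs. Gtsf1l, a relative of Gtsf1, was at 0 in all 3 inputs, which allows up to 0.212 RPM in the shallowest.

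The authors' deposited table gives 1 enrichment ratio per feature and listed 226 of the 253 clusters. Of these, 127 (56.2%) were above 1 in the authors' deposited table, beside 74.6% of its 216085 features, and the median was 1.06, beside 1.37 for all. It listed 8 of the 17 clusters called higher, all 8 above 1, and 12 of the 17 called lower, 0 of them above 1. The authors' deposited table gave chr13-qA2.4 a ratio of 178 (rank 101 of all features) and chr11-qE1.9 a ratio of 160 (rank 113). It gave 21.3 for Gm11635.1, 12.7 for chr10-qC1.2 and 11.0 for chr5-qG1.1.1, and 0.0834 for chr5-qF.16, 0.0603 for chr4-qD1.24 and 0.0266 for chr9-qC.25. How the authors' deposited table combined the libraries is not stated in the sources used here.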

How the data were processed

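Libraries of 6 samples were demultiplexed, aligned and counted by the submitters, whose processing notes name bcl2fastq 2.19, STAR 2.5.2b, bedtools 2.29.0 and the mouse build mm10. The authors deposited, per annotated feature and library, expected counts (fractional where reads were split) and RPM values, which the counts show to be scaled to all reads of the library. The authors also deposited a table with 1 enrichment ratio per feature. Whether counting used strand, and the source of the cluster annotation, are not given in the sources used here. Reads without annotation (6.99% to 14.4% of a library) were left out of library sizes and tests.

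Expected counts were rounded and the 2 crosslinked pull-downs compared with the 2 crosslinked inputs by the quasi-likelihood test of edgeR 4.0.16 (R 4.3.3) over the 39872 features that averaged 1 RPM or more in these libraries, with annotated reads as library size. Benjamini-Hochberg adjusted p under 0.05 over all of these features was called; the script was tested on simulated data. Non-crosslinked ratios, from 1 library each, are on the log2(RPM + 1) scale, which understates changes of scarce clusters. Host genes were matched by symbol to RefSeq (GRCm38.p6). Named clusters were the 15 with the highest mean, up to 10 called in each direction by size of the log2 ratio, and 3 on each side of the 1 RPM minimum; others are named after their values were seen. The members, marker and pathway lists and naming rules were chosen with earlier results of these data known. Alternatives were TMM, DESeq2 1.42.0, limma 3.58.1, other filters and library sizes, a replicate block, all 6 libraries in 1 fit, and each crosslinked library left out. In the fits with a library left out, 1 group holds 1 library, and the spread comes from the other group alone. Counting identical features once and the interaction test were added after the data were seen.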

Additional observations from a re-analysis of the deposited data

How the results depend on the processing

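The counts of called clusters moved with the filter and the scaling. The 17 clusters called higher became 8 of 62 with a mean of at least 5 RPM (12.9%, beside 9.29% of all features in that fit), 29 of 245 with at least 1 RPM in the pull-downs (11.8%, beside 10.7%), and 20 to 22 with a crosslinked library left out (7.91% to 8.70%, beside 6.46% to 6.93%). The 17 called lower became 11 under TMM factors, 8 under DESeq2 and 29 with unannotated reads in the library size. They became 9 with at least 5 RPM (14.5%, beside 6.87%), 29 and 28 with limma on log2(RPM + 1) and log2(RPM + 0.5) (11.5% and 11.1%, beside 5.81% and 5.79%), and 13 to 26 with a crosslinked library left out (5.14% to 10.3%, beside 2.11% to 5.44%). With no filter, edgeR called 0 higher and 0 lower among 2100 clusters, with 137 (6.52%, beside 2.92% of all features) and 108 (5.14%, beside 1.52%) at an unadjusted p under 0.05, and 0 pathway genes in place of 1; that fit tested 942601 features. The class ratio of 0.292 was 0.550 without the top cluster, 0.874 without the top 3 and 0.873 without the top 5, and 0.243 to 0.366 with a crosslinked library left out. The share of chr5-qF.16 among cluster reads was 44.8% to 52.9% in the inputs and 1.41% to 8.59% in the pull-downs when 1 library was left out. The labels do not say that replicate numbers mark shared lysates, and over the tested features the deviations of same-numbered libraries had a correlation of 0.111. With the number as a replicate block, 17 clusters were called higher (6.72%, beside 6.35%) and 19 lower (7.51%, beside 4.16%). The calls of chr5-qF.16 (adjusted p 0.0562), chr12-qC1.29 (0.0573) and chr12-qC1.30 (0.0663) were lost there, and chr4-qE1.45 was called lower (0.0491). Over the alternatives that keep all crosslinked libraries, the adjusted p of chr5-qF.16 ran from 0.00064 (DESeq2) to 0.604 (edgeR with no filter). The 27 clusters for which alternatives were computed kept their direction under each one that gave them a value. The depth limits single libraries to about 0.163 to 0.228 RPM (3 reads).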
